A study of Mus musculus with 6 samples.

Results

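The genes described here are 10 mouse genes of the ATF4 stress pathway and its connection to mTOR: the transcription factor genes Atf4, Atf5 and Ddit3, the effector genes Asns, Slc7a11, Chac1 and Trib3, and the mTOR inhibitor genes Sesn2, Ddit4 and Ddit4l. All 10 had a probe set assigned to a single gene, 1 each, among 19938 genes measured. They were chosen by name and by their differences between the groups in earlier results of the same arrays, and a probe set was to be selected on its mean over all 6 arrays where a gene had several, so their values describe them and are no independent support for any pattern among them.

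Adult forebrain cortex of C57BL/6 mice was compared between 3 animals labelled Dicer KO, of genotype CamKII-Cre/+;Dicer flox/flox, and 3 littermate controls. A control was either CamKII-Cre/+;Dicer flox/+, with Cre and a single floxed allele, or, lacking Cre, +/+;Dicer flox/flox. The labels do not assign these genotypes to single controls, so every animal carried at least 1 floxed allele and some controls may carry Cre. The CamKII promoter drives Cre in excitatory forebrain neurons, which are only some of the cells in a piece of cortex. Each animal gave total RNA for 1 Affymetrix whole-transcript array, and the series asks, in its title, about tau phosphorylation and neurodegeneration after loss of Dicer, the enzyme that makes mature microRNAs.

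When amino acids run short, unfolded protein collects in the endoplasmic reticulum, haem is lacking or viral RNA is present, kinases phosphorylate the translation factor eIF2. General translation then slows while the messenger RNAs of Atf4 and Atf5 are translated better, so the transcript level of these factors does not by itself give the amount of protein. ATF4 binds, often with C/EBP proteins, to elements in genes for amino acid synthesis, amino acid transport and tRNA charging, and to stress genes such as Ddit3, Trib3, Chac1 and Sesn2. Sestrins and the Ddit4 proteins restrain mTORC1, the kinase complex that promotes protein synthesis when nutrients are plentiful.

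The promoter windows are shown first because this binding element is the feature by which genes of the set are known to respond to ATF4, and because the 4 genes that carry it here had differences of both signs on these arrays. The windows reach from 250 bases before to 50 after the RefSeq gene start in build GRCm38.p6, and all 10 genes matched a window by symbol, Atf5 with a pair of starts. The element was searched as TGATGNAA on both strands, where N is any base. It was found in Asns, Slc7a11, Chac1 and Trib3, which is 4 of 10 genes, against 3.62% of the 15614 measured genes with a window and 3.97% of all 32851 windows. The stricter form TGATGCAA, which the first form contains, was found in Slc7a11 and Chac1, against 0.82% of measured genes. The set was chosen by name for its link to ATF4, so a high share of this element is no independent finding. The following windows are written 5′ to 3′ on the gene's strand with matches to TGATGNAA, or to its reverse complement TTNCATCA, in capitals.
Slc7a11, chr3:50443564-50443863, minus strand: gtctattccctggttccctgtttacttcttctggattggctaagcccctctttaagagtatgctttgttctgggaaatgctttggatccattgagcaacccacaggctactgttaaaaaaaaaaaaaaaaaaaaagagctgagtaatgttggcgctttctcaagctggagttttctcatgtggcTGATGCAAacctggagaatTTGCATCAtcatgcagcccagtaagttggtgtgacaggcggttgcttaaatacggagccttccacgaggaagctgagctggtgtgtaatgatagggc
Chac1, chr2:119350992-119351291, plus strand: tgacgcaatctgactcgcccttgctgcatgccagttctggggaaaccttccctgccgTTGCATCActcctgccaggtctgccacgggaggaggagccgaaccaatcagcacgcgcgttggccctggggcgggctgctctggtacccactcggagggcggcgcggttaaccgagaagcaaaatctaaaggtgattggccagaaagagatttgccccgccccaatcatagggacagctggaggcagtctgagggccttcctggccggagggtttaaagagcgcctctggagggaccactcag
Asns, chr6:7693160-7693459, minus strand: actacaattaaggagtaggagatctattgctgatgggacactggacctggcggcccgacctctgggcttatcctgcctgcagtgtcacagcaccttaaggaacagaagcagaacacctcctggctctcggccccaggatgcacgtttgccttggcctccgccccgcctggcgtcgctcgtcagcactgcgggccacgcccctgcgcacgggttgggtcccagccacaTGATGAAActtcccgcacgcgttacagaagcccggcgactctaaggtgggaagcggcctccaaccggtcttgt
Trib3, chr2:152344011-152344310, minus strand: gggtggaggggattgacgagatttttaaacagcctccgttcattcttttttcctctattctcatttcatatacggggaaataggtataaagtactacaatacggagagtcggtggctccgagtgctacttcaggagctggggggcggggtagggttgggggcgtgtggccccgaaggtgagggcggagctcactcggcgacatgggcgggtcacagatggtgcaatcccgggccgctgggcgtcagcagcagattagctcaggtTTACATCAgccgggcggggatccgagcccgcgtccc
Ddit4l, chr3:137623422-137623721, plus strand, shown because it is the gene with the largest difference: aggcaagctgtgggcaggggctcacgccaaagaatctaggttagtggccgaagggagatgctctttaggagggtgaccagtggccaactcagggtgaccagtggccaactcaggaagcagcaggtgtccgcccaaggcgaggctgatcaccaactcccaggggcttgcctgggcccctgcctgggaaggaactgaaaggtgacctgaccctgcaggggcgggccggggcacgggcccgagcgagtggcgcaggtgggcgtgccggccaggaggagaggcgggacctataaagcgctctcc

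Slc7a11 had matches on opposite strands that begin 66 and 47 bases before the start, in Asns the match began 23 bases before it and in Chac1 193 bases before it, and in Trib3 it began at base 15 of the transcript. The antioxidant response element that NRF2 binds, searched as TGACNNNGC on both strands, was found in Asns, Sesn2 and Ddit4l, that is 3 of 10 genes, against 15.2% of measured genes. A match of letters is not a bound site, and a window without one says only that these letters do not occur in it.

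**Figure D1:**
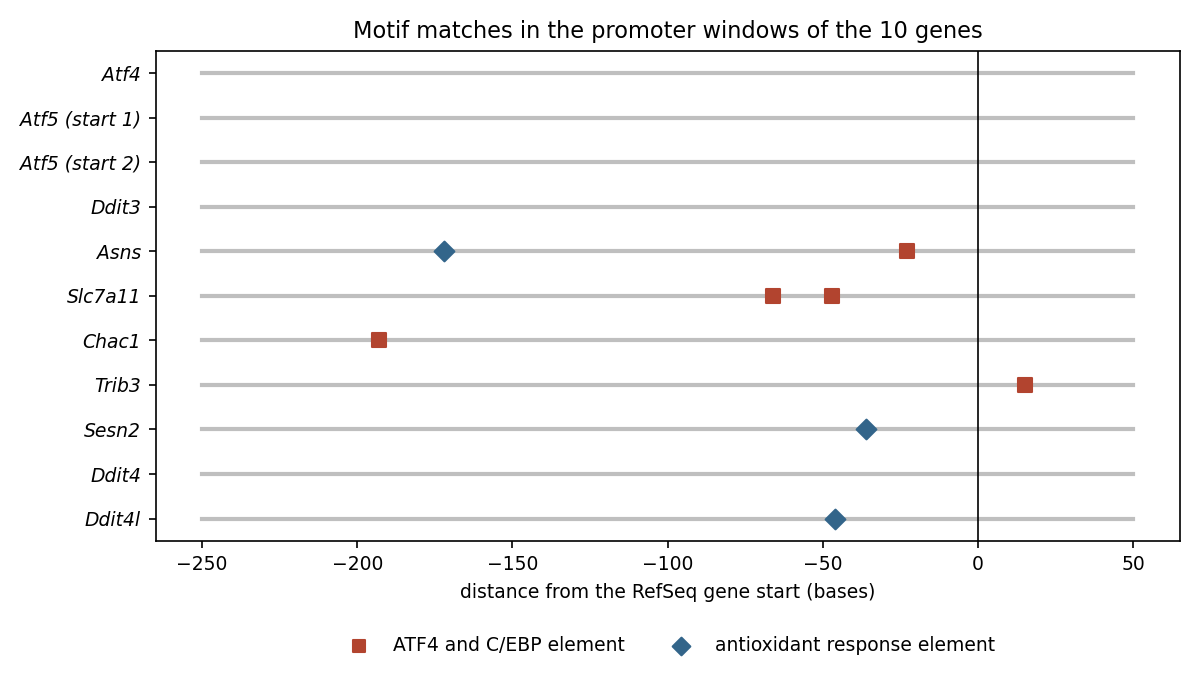
Motif matches in the RefSeq promoter windows of the 10 genes, with the distance of each match's first base from the gene start on the x axis in bases and 1 line for each start. Squares are the ATF4 and C/EBP element (TGATGNAA), found in Asns, Slc7a11, Chac1 and Trib3, and diamonds are the antioxidant response element, found in Asns, Sesn2 and Ddit4l.

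The labels could not be checked through the targeted gene. Dicer1 read 9.58, 9.68 and 9.46 on the arrays labelled Dicer KO, against 9.17, 9.21 and 9.18 on control arrays, which is higher and not lower, and the exons its probe set reads were not examined, so groups are named by their labels throughout. X and Y transcripts showed that labelled Dicer KO arrays 1 and 3 and control array 2 came from males and the others from females. The cortex samples held excitatory neuron markers at mean log2 levels of 10.27 to 10.37 on labelled Dicer KO arrays and 10.39 to 10.52 on control arrays. Arrays of both groups differed in cell type genes. On labelled Dicer KO array 3, astrocyte markers lay 0.58 and striatal genes 0.71 above the control mean, and on control array 1, 8 olfactory bulb genes lay 1.03 above it. Relative to the same mean, oligodendrocyte markers were at 0.42 on control array 3. They were at 0.44 and -0.28 on labelled Dicer KO arrays 3 and 2. Meningeal markers were at 0.36 on labelled Dicer KO array 1. In bulk tissue, fewer cells of a type and less RNA per cell cannot be told apart.

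Of the 10 genes, Ddit4l passed the test across all genes and was lower in the arrays labelled Dicer KO, and 0 of 10 passed in the upward direction (limma, Benjamini-Hochberg adjusted p under 0.05). Over all 19938 genes 0.281% passed, 0.0903% higher and 0.191% lower. At an unadjusted p under 0.05, Slc7a11 was higher and Atf4, Asns and Ddit4l were lower, 4 of 10 against 14.4% of all genes. The groups did not overlap for 5 of the 10, against 20.3% of all genes: Slc7a11 and Ddit3 were higher and Atf4, Asns and Ddit4l lower on every labelled Dicer KO array than on any control array. The median difference of the set was -0.14 on the log2 scale, with 4 genes above 0 and 6 below, and that of all genes was -0.0092. The set was thus mixed in direction, from -0.89 for Ddit4l to 0.67 for Slc7a11. All differences are labelled Dicer KO minus control, and a log2 difference of 1 is a doubling.

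**Figure D2:**
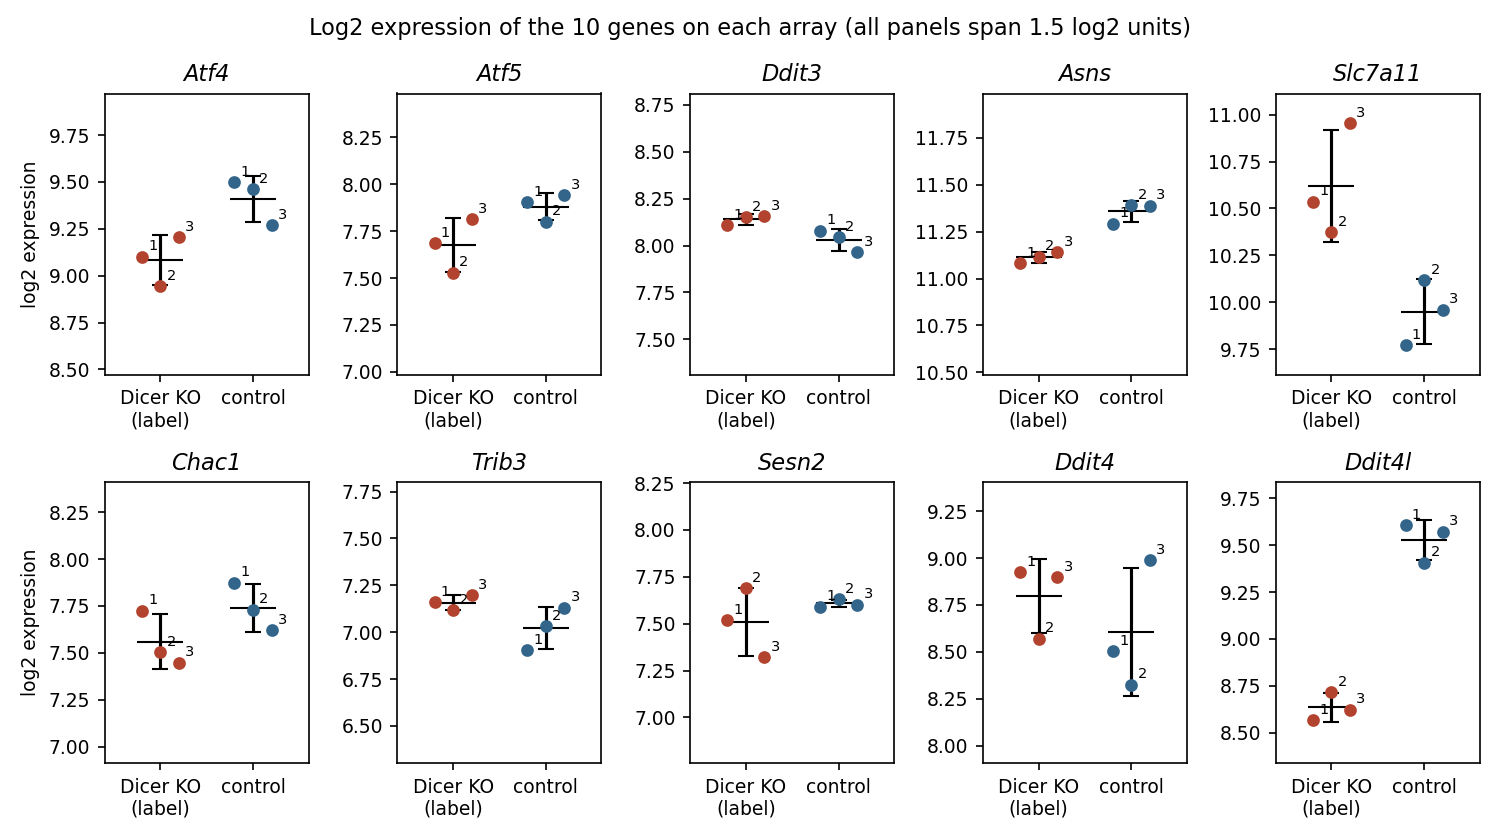
Log2 expression of each gene (y axis, log2 units, each panel spanning 1.5 units) on the 3 arrays labelled Dicer KO (red, left) and the 3 control arrays (blue, right), with the array number beside each point, the group mean as a bar and the SD as whiskers. Ddit4l has the widest gap between groups, 0.69 between its nearest arrays, and Ddit4 overlaps most.

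Among the transcription factors, Atf4 and Atf5 had negative differences and Ddit3 a small positive one, and none of the 3 passed the test. Atf4, the central activator of the response, read 9.10, 8.94 and 9.21 on labelled Dicer KO arrays 1 to 3, against 9.50, 9.46 and 9.27 on control arrays 1 to 3. The nearest arrays of the 2 groups were 0.065 apart, so the separation was narrow. Its means were 9.08 ± 0.13 and 9.41 ± 0.12 (SD, n = 3 each), a difference of -0.33 ± 0.10 (SE) with a 95% interval of -0.56 to -0.092 and a limma adjusted p of 0.203. With each array left out in turn the difference lay between -0.40 and -0.26.

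Atf5, a related factor that is also controlled at translation, read 7.69, 7.53 and 7.81 on labelled Dicer KO arrays, against 7.90, 7.80 and 7.94 on control arrays. Labelled Dicer KO array 3 lay just above control array 2, and all other labelled Dicer KO values were below the controls. The difference was -0.21 ± 0.098 (SE; 95% interval -0.43 to 0.018, limma adjusted p = 0.391), and it was -0.13 without labelled Dicer KO array 2.

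Ddit3 encodes CHOP, a factor that ATF4 induces and that promotes cell death when stress lasts. It read 8.11, 8.15 and 8.16 on labelled Dicer KO arrays, against 8.08, 8.04 and 7.96 on control arrays. The values were tight in both groups and the nearest arrays were 0.028 apart. The difference of 0.11 ± 0.080 (SE; 95% interval -0.072 to 0.29) had a limma adjusted p of 0.593. The interval reaches from a small fall to a rise of 0.29 on the log2 scale.

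The 4 effectors, all with the binding element, had differences of both signs, and none passed the test. Asns makes asparagine and is a standard readout of ATF4. It read 11.08, 11.12 and 11.14 on labelled Dicer KO arrays, against 11.29, 11.39 and 11.39 on control arrays. The groups were 0.15 apart, and each spanned under 0.10. The difference was -0.24 ± 0.080 (SE; 95% interval -0.43 to -0.063), 1.18-fold lower in the labelled Dicer KO arrays, with a limma adjusted p of 0.216. It stayed between -0.28 and -0.23 with each array left out in turn.

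Slc7a11 encodes the cystine and glutamate exchanger xCT, which supplies cystine for glutathione and in brain is found mostly in astrocytes. It read 10.54, 10.37 and 10.95 on labelled Dicer KO arrays, against 9.77, 10.12 and 9.96 on control arrays. Every labelled Dicer KO array was higher than every control, the nearest by 0.26, and labelled Dicer KO array 3 was the highest. Its means were 10.62 ± 0.30 and 9.95 ± 0.17 (SD, n = 3 each). The difference of 0.67 ± 0.15 (SE; 95% interval 0.32 to 1.02), 1.59-fold, did not pass across all genes (limma adjusted p = 0.105).

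Labelled Dicer KO array 3, highest in Slc7a11, was also highest in astrocyte markers. Of these 8 markers 7 had positive differences, against 47.3% of all genes, and 4 were higher on every labelled Dicer KO array than on any control array, against 9.3% of all genes. The median difference of the 8 was 0.19, and the largest was 1.07 ± 0.33 (SE) for Gfap, named after its values were seen. Gfap read 9.10, 8.92 and 10.44 on labelled Dicer KO arrays, against 8.34, 8.35 and 8.55 on control arrays. Relative to the control mean, the markers averaged 0.19, 0.033 and 0.58 on labelled Dicer KO arrays 1 to 3, against -0.080, 0.0013 and 0.079 on control arrays. Their mean log2 level ranged from 10.29 to 10.84 on labelled Dicer KO arrays and from 10.18 to 10.34 on control arrays, and their part in the Slc7a11 values was not tested. The Slc7a11 difference lay between 0.50 and 0.80 with each array left out in turn, with limma adjusted p from 0.0970 to 0.305. Without labelled Dicer KO array 3 the difference was 0.50, with a limma adjusted p of 0.0970, the smallest of each. Without both that array and control array 1 it was 0.42, and this alternative was chosen after seeing the data.

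Sex also differed between the groups. In males, Slc7a11 read 10.54 and 10.95 on labelled Dicer KO arrays, against 10.12 on the control array. In females it read 10.37 on the labelled Dicer KO array, against 9.77 and 9.96 on control arrays. The labelled Dicer KO values were higher within each sex, on very few arrays. With sex in the model the difference was 0.57 ± 0.14 (SE; limma adjusted p = 0.198). The other NRF2 targets, which like Slc7a11 respond to oxidative stress, had 5 of 8 differences above 0 and a median of 0.099. Nqo1, a quinone reductase, was the other gene of that list with the smallest p. It read 7.04, 7.43 and 7.16 on labelled Dicer KO arrays, against 6.52, 6.64 and 6.87 on control arrays, a difference of 0.53 ± 0.13 (SE; limma adjusted p = 0.12).

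Chac1, which breaks down glutathione, carries the stricter element, as Slc7a11 does. It read 7.73, 7.50 and 7.45 on labelled Dicer KO arrays, against 7.87, 7.73 and 7.62 on control arrays. The groups overlapped, because labelled Dicer KO array 1 lay above control array 3. The difference was -0.18 ± 0.11 (SE; 95% interval -0.43 to 0.060, limma adjusted p = 0.493), and it was -0.12 without control array 1 and -0.061 without both that array and labelled Dicer KO array 3.

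Trib3 encodes a pseudokinase that binds AKT and feeds back on ATF4. It read 7.16, 7.12 and 7.20 on labelled Dicer KO arrays, against 6.91, 7.03 and 7.13 on control arrays. Control array 3 fell within the range of the labelled Dicer KO arrays and the other controls lay below it. The difference was 0.14 ± 0.089 (SE; 95% interval -0.067 to 0.34, limma adjusted p = 0.544). It was 0.077 without control array 1.

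**Figure D3:**
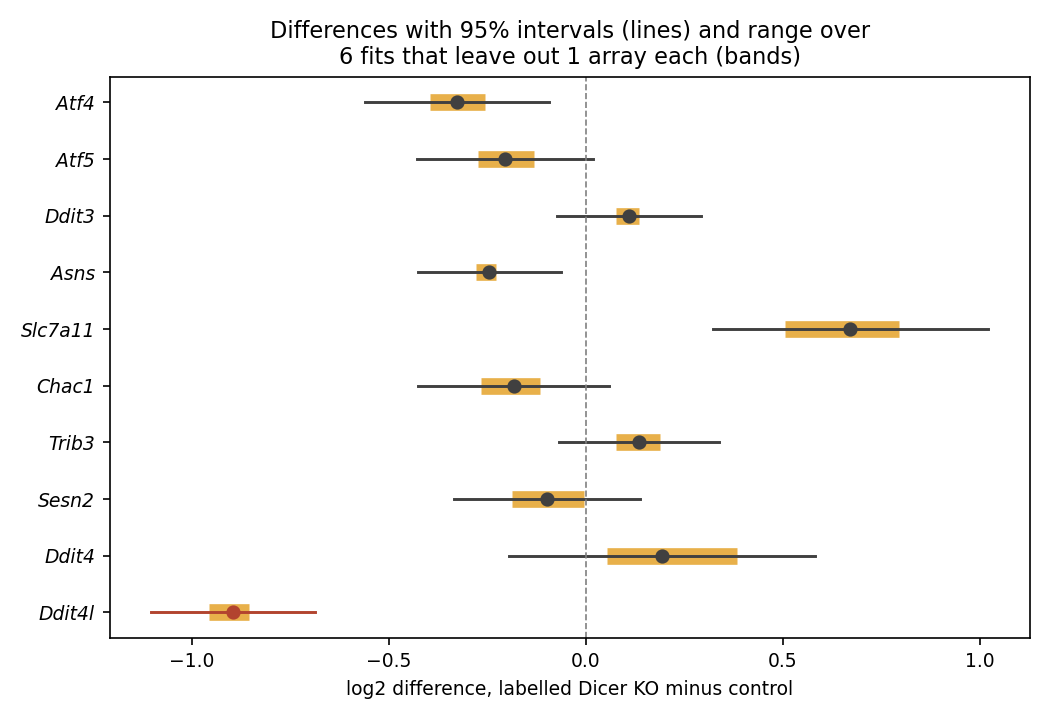
Log2 difference of each gene, labelled Dicer KO minus control (x axis), as points with the 95% interval of the limma fit (thin lines) and the range over the 6 fits that leave out 1 array each (bands). Ddit4l (red), at -0.89, passed the test across all genes, and Atf4, Asns and Slc7a11 have intervals that do not reach 0 without passing it.

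Of the 3 mTOR inhibitors, Ddit4l fell in the arrays labelled Dicer KO while Ddit4 and Sesn2 overlapped between groups. Ddit4l, also called REDD2, is the paralog of Ddit4, and both proteins lower mTORC1 activity. It read 8.57, 8.72 and 8.62 on labelled Dicer KO arrays, against 9.61, 9.41 and 9.57 on control arrays. The groups were 0.69 apart, several times the spread within either group. Its means were 8.64 ± 0.076 and 9.53 ± 0.11 (SD, n = 3 each). The difference of -0.89 ± 0.092 (SE; 95% interval -1.10 to -0.69), 1.86-fold lower in the labelled Dicer KO arrays, had a limma adjusted p of 0.0192 and the rank 5 by p among 19938 genes.

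The size of the Ddit4l difference hardly moved between fits, but its call did. With each array left out in turn the difference lay between -0.96 and -0.85. The limma adjusted p was 0.0250 without labelled Dicer KO array 3, 0.0618 without labelled Dicer KO array 1 and 0.0534 without labelled Dicer KO array 2. It was 0.114, 0.0979 and 0.0692 without control arrays 1, 2 and 3. In the 5 fits other than the first, limma called 0 of all 19938 genes, with 2197 to 2532 at an unadjusted p under 0.05. In males, Ddit4l read 8.57 and 8.62 on labelled Dicer KO arrays, against 9.41 on the control array. In females it read 8.72 on the labelled Dicer KO array, against 9.61 and 9.57 on control arrays. With sex in the model the difference was -0.84 ± 0.093 (SE; limma adjusted p = 0.0606). Control array 1, highest in Ddit4l, was also highest in the olfactory bulb genes, whose mean log2 level was 6.79 to 6.84 on labelled Dicer KO arrays, against 8.30, 6.70 and 6.82 on control arrays. Without that array the Ddit4l difference was -0.85. Of 9 excitatory neuron markers, 1 passed the limma test and was lower, against 0.191% of all genes. At an unadjusted p under 0.05 there were 2, both lower, against 7.39% of all genes. The 9 markers had a median difference of -0.098, with 3 above 0 and 6 below. The groups did not overlap for 11.1% of them, against 20.3% of all genes. The called marker, Nrgn, which encodes neurogranin, was at -0.60. The part of these markers in the Ddit4l values was not tested.

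Ddit4, or REDD1, acts through the TSC complex and is induced by hypoxia, by glucocorticoids and by DNA damage as well as by ATF4. It read 8.93, 8.57 and 8.90 on labelled Dicer KO arrays, against 8.50, 8.32 and 8.99 on control arrays. Control array 3 was the highest of all 6 arrays, and the control range of 0.66 was wider than the labelled Dicer KO range of 0.36. The difference of 0.19 ± 0.17 (SE; 95% interval -0.19 to 0.58) had a limma adjusted p of 0.674. It was 0.38 without control array 3, 0.053 without control array 2 and 0.31 without labelled Dicer KO array 2, so single arrays decided its size.

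The paralogs therefore gave opposite signs, and the interval of Ddit4 does not reach the size measured for Ddit4l in either direction. Whether the pair of differences differs was not tested.

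Genes that share inducers with Ddit4 showed a mixed picture. All 10 measured glucocorticoid-induced genes had positive differences, with a median of 0.19 and values from 0.10 to 0.58, where 47.3% of all genes were above 0. None passed the limma test. At an unadjusted p under 0.05 there were 2, both higher, against 7.01% of all genes. Relative to the control mean their average was 0.38, 0.30 and 0.069 on labelled Dicer KO arrays 1 to 3, against -0.092, 0.042 and 0.050 on control arrays. Per1, a clock gene with a glucocorticoid response, was at 0.58 ± 0.14 (SE; limma adjusted p = 0.118). Sgk1, a kinase gene that glucocorticoids induce, was at 0.43 ± 0.17 (SE; limma adjusted p = 0.291).

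The 13 hypoxia-induced genes tended the other way, with 10 below 0 and a median of -0.20, where 47.3% of all genes were above 0. None passed the limma test. At an unadjusted p under 0.05 there was 1 higher and 4 lower, against 7.01% and 7.39% of all genes. Ldha, lactate dehydrogenase, was at -0.46 ± 0.11 and the vascular growth factor gene Vegfa at -0.44 ± 0.11 (SE), with limma adjusted p of 0.111 and 0.12. Within each group the array highest in Ddit4, labelled Dicer KO array 1 and control array 3, was also the highest in the glucocorticoid-induced genes. Among controls the margin was narrow. Control array 3 was at 0.050 in those genes and control array 2, the lowest in Ddit4, at 0.042. Labelled Dicer KO array 2 was lowest of its group in Ddit4 and above labelled Dicer KO array 3 in those genes. The part of either list in the Ddit4 values was not tested.

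**Figure D4:**
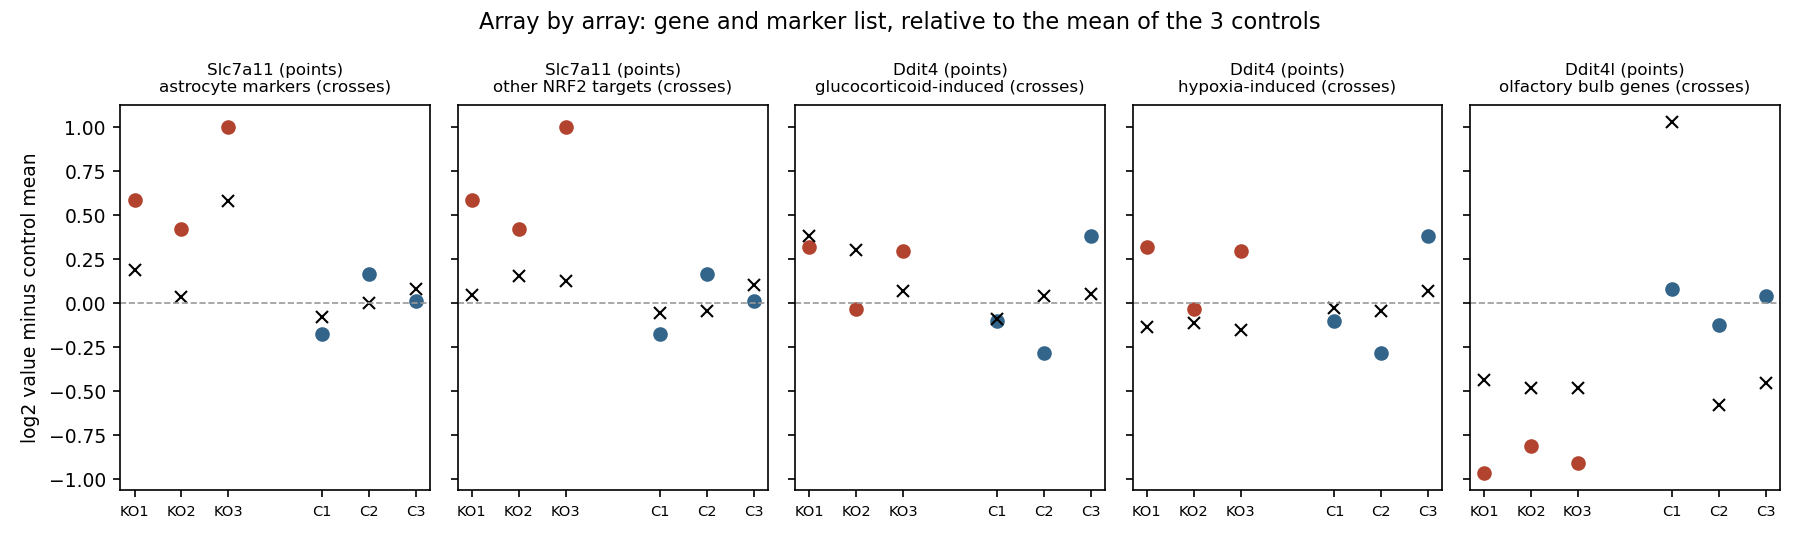
Log2 value of a gene (points, red for labelled Dicer KO and blue for control) and mean of a gene list (crosses) on each array, both relative to the mean of the 3 controls (y axis, log2 units). Slc7a11 and the astrocyte markers are both highest on labelled Dicer KO array 3, and the olfactory bulb genes stand 1.03 above the control mean on control array 1 while Ddit4l separates the groups on all 6 arrays.

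Sesn2 encodes a sestrin, a leucine sensor that holds back mTORC1 through the GATOR complexes and is induced by ATF4 and p53. It read 7.52, 7.69 and 7.32 on labelled Dicer KO arrays, against 7.59, 7.63 and 7.60 on control arrays. The controls lay within 0.040 of each other, inside the range of the labelled Dicer KO arrays. The difference was -0.098 ± 0.10 (SE; 95% interval -0.33 to 0.14, limma adjusted p = 0.732), and it was -0.0041 without labelled Dicer KO array 3 and -0.19 without labelled Dicer KO array 2.

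The other sestrins had positive differences. Sesn3, a sestrin gene controlled by FOXO factors, read 10.71, 10.78 and 10.61 on labelled Dicer KO arrays, against 10.17, 10.39 and 10.36 on control arrays. Its groups did not overlap, and the difference was 0.39 ± 0.095 (SE; limma adjusted p = 0.12). Sesn1, a p53 target, read 10.31, 10.63 and 9.78 on labelled Dicer KO arrays, against 9.69, 9.86 and 9.88 on control arrays. Labelled Dicer KO array 3 lay among the controls, and the difference was 0.43 ± 0.19 (SE; limma adjusted p = 0.344). None of the 3 sestrins passed the test.

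The genes whose profile over the 6 arrays was most like that of Ddit4l were Stard10, Tlcd4, Gpat4, Coq2 and Txn2. They were taken by Pearson's r from 9734 genes with a proper name and at least median mean level, and their r lay between 0.9918 and 0.9979. With groups this far apart, r mainly reflects the contrast, and 123 of those genes had r above 0.95. Their own differences were -0.30, -0.32, -0.33, -0.32 and -0.24, with limma adjusted p from 0.122 to 0.216.

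Around the 10 genes, 14 lists covered the rest of the pathway and neighbouring responses. Their 167 other measured genes gave 0 calls in either direction by limma. At an unadjusted p under 0.05, 18 were higher and 24 lower, against 7.01% and 7.39% of all genes. The median difference was 0.00057, with 84 above 0 and 83 below. The groups did not overlap for 22 higher and 28 lower genes, against 9.3% and 11% of all genes.

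Upstream of ATF4, the 15 genes of eIF2 kinases, phosphatase subunits, eIF2 and eIF2B had a median of 0.085, with 10 above 0. At an unadjusted p under 0.05 there was 1, higher, against 7.01% of all genes: Eif2s2, the beta subunit of eIF2. It read 9.88, 10.14 and 10.08 on labelled Dicer KO arrays, against 9.42, 9.51 and 9.51 on control arrays, so the groups were well apart. The difference was 0.55 ± 0.094 (SE) and the limma adjusted p of 0.0555 just missed the threshold. Eif2ak2, the kinase PKR that senses double-stranded RNA, was at 0.28 ± 0.16 (SE; limma adjusted p = 0.485). Transcript levels of these genes do not report phosphorylation of eIF2.

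Beside Atf5 and Ddit3, 6 other stress transcription factors had a median of -0.12, with 4 below 0. Cebpb, a C/EBP partner of ATF4, read 7.70, 7.73 and 7.70 on labelled Dicer KO arrays, against 7.88, 7.86 and 8.03 on control arrays. Its groups did not overlap, and its difference was -0.21 ± 0.085 (SE; limma adjusted p = 0.302). Jdp2, a bZIP repressor, was at -0.34 ± 0.087 (SE; limma adjusted p = 0.135).

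Downstream of ATF4, genes of tRNA charging mostly had negative differences. The list holds tRNA synthetases and the tRNA exporter Xpot. Of its 12 measured genes 11 had negative differences and 1 a positive one, where 47.3% of all genes were above 0, and the median was -0.083. None passed the limma test, and 4, all lower, had an unadjusted p under 0.05, against 7.39% of all genes. Wars, which charges tRNA with tryptophan and is also induced by interferon, read 9.80, 9.72 and 9.69 on labelled Dicer KO arrays, against 10.05, 10.08 and 10.21 on control arrays. Its difference was -0.38 ± 0.085 (SE; limma adjusted p = 0.102). Yars, the tyrosine enzyme, was at -0.30 ± 0.10 (SE; limma adjusted p = 0.241).

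Of 10 amino acid synthesis genes, 6 were above and 4 below 0, with a median of 0.0045. At an unadjusted p under 0.05 there were 2, both lower, against 7.39% of all genes. The 2 were Mthfd2, a mitochondrial folate enzyme, at -0.31 ± 0.094 and Aldh18a1, which starts proline synthesis, at -0.28 ± 0.092 (SE). The limma adjusted p was 0.193 for Mthfd2 and 0.216 for Aldh18a1.

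The 9 amino acid transporter genes split, with 4 above and 5 below 0 and a median of -0.021. Slc38a2, a glutamine and alanine carrier, was at 0.32 ± 0.088 and Slc7a3, a cationic amino acid carrier, at -0.42 ± 0.12 (SE), with limma adjusted p of 0.157 and 0.162. Slc3a2 encodes the heavy chain that pairs with xCT and was named after its values were seen. It read 11.57, 11.60 and 11.81 on labelled Dicer KO arrays, against 11.31, 11.44 and 11.37 on control arrays. As for Slc7a11, array 3 was the highest of the labelled Dicer KO arrays and the groups did not overlap, with a difference of 0.29 ± 0.095 (SE; limma adjusted p = 0.216). Among 11 other reported ATF4 targets, 8 were above 0, with a median of 0.091. The oxidase gene Ero1a was at 0.37 ± 0.10 (SE; limma adjusted p = 0.153), and Vegfa belongs to this list too.

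The IRE1 and ATF6 branches handle unfolded protein beside the ATF4 branch. Of their 19 genes, 13 had negative differences, with a median of -0.087. At an unadjusted p under 0.05 there were 3 higher and 5 lower, against 7.01% and 7.39% of all genes. Edem1, which sends misfolded glycoproteins to degradation, was at 0.49 ± 0.094 (SE; limma adjusted p = 0.0780). Pdia6, a disulfide isomerase, was at -0.36 ± 0.089 (SE; limma adjusted p = 0.127).

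In the lists of the mTOR pathway, which include the other sestrins, no gene passed the limma test. The 14 genes of mTOR complexes and direct inhibitors had a median of -0.023. At an unadjusted p under 0.05 there were 2 higher and 3 lower, against 7.01% and 7.39% of all genes. Akt1s1, the mTORC1 inhibitor PRAS40, was at -0.27 ± 0.083 and Rptor, the mTORC1 subunit raptor, at -0.24 ± 0.084 (SE), with limma adjusted p of 0.192 and 0.241. The 24 genes of amino acid sensing had a median of 0.076, with 13 above 0 and 11 below. At an unadjusted p under 0.05, 2 of them were higher and 2 lower, against 7.01% and 7.39% of all genes. Lamtor5, a Ragulator subunit, was at -0.45 ± 0.13 (SE; limma adjusted p = 0.156), opposite in sign to Sesn3 of the same list.

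The 10 mTORC1 effectors had a median of 0.10, with 7 above 0. At an unadjusted p under 0.05 there were 2, both higher, against 7.01% of all genes. Pdcd4, an inhibitor of translation that mTORC1 signalling removes, was at 0.38 ± 0.12 (SE; limma adjusted p = 0.196). Grb10, an adaptor that mTORC1 phosphorylates, was at 0.28 ± 0.12 (SE; limma adjusted p = 0.319). These are transcript levels, and activity of mTORC1 was not measured.

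The 10 measured p53 targets, which overlap with the inducers of Sesn2 and Ddit4, had a median of 0.0088, with 6 above 0. Trp53inp1, a stress protein gene, read 9.98, 9.89 and 9.49 on labelled Dicer KO arrays, against 9.08, 9.15 and 9.13 on control arrays. Its groups did not overlap, and the difference of 0.67 ± 0.13 (SE) had a limma adjusted p of 0.0772.

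**Figure D5:**
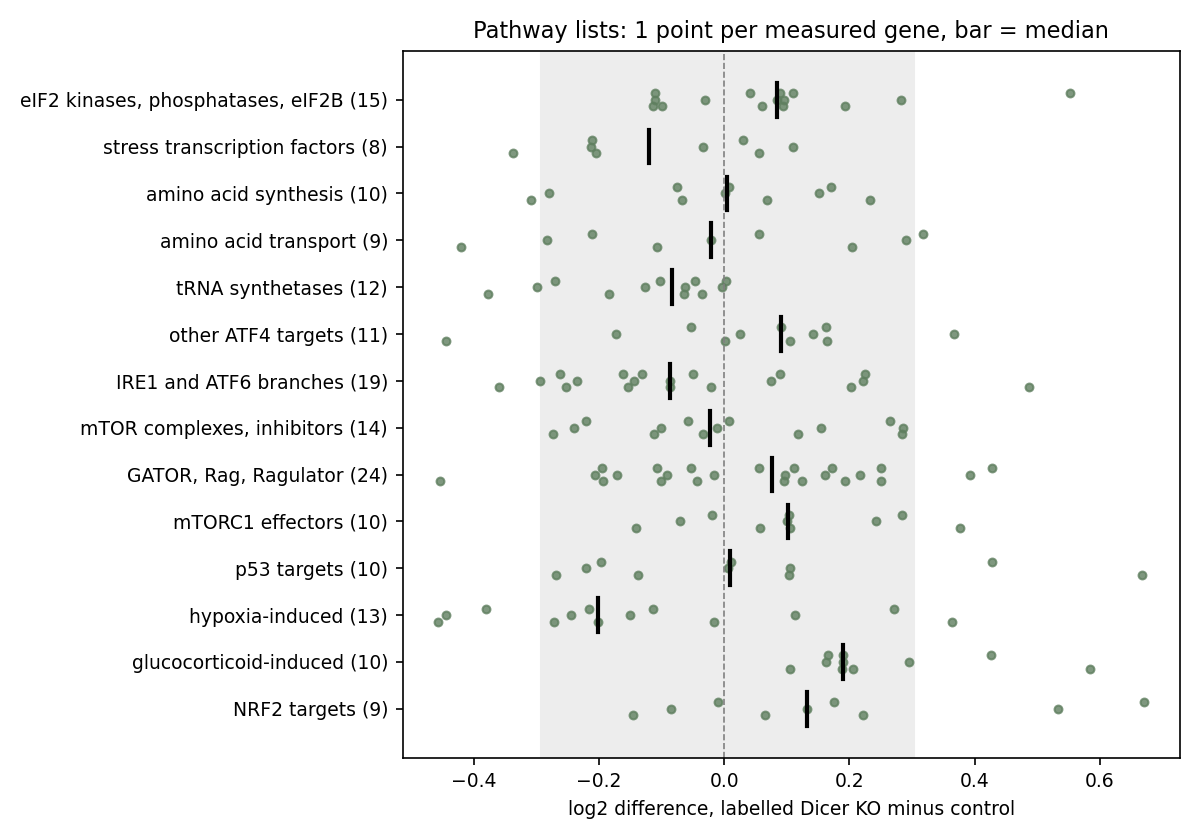
Log2 difference, labelled Dicer KO minus control (x axis), of every measured gene of the 14 pathway lists (points, number of genes in brackets) with each list's median (bar) and, shaded, the range that holds the middle 9 in 10 of all genes. The 10 glucocorticoid-induced genes lie above 0 and 11 of the 12 genes of the tRNA synthetase list, which also holds the tRNA export gene Xpot, below it, and the other lists fall on both sides.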

How the data were processed

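Total RNA of 6 cortex samples was hybridised to 1 array each, per the labels' protocols. The deposited table holds 35557 rows of log2 values, and the submitters' processing notes name RMA and limma, without versions. How background was corrected is not given in the sources used here. Differences of dim transcripts are shrunk by RMA, no detection call was used, and the number of arrays limits precision. The labels call the arrays biological replicates.

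Groups and array numbers came from the sample titles. Of the probe sets, 21789 have 1 gene symbol, 21698 of them named through gene identifiers of GRCm38.p6, and the brightest by mean over 6 arrays stood for its gene. Levels of different probe sets cannot be compared. The test was limma 3.58.1 under R 4.3.3 (lmFit, eBayes, two-sided, Benjamini-Hochberg over 19938 genes, threshold 0.05), after the steps were tested on simulated data. Exact permutation of 3 and 3 arrays gives no p below 0.1 and was not used. Members and lists were chosen with earlier results of these data known. Named were all members, genes past the threshold or else up to 2 of smallest p per pathway list, and the 5 genes most like Ddit4l. RefSeq promoters were searched on both strands. Alternatives were the array number as a block, single arrays left out, 2 normalizations, dim genes left out, probe sets averaged, all rows, 2 other variance models, sex, and, added after the data were seen, 2 arrays left out together.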

Additional observations from a re-analysis of the deposited data

How the results depend on the processing

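All 10 genes kept the sign of their difference under all alternatives run, and for the 9 genes other than Ddit4l no alternative gave a limma adjusted p under 0.05. The sign could change only with another normalization, with sex in the model or with arrays left out. The other alternatives return the same difference, because each gene has 1 probe set and they alter only the block, the variance or the genes tested. Across all genes 56 were called. The count was 215 with the array number as a replicate block, when Ddit4l stayed the 1 gene of the set called, and 121 without the genes of lowest mean level. It was 12 without labelled Dicer KO array 3 and control array 1, chosen after seeing the data, when 0 of the 10 were called and Ddit4l had a limma adjusted p of 0.0632. It was 0, and 0 of the 10, with every row tested, without moderation of the variance and with sex as a covariate, where 3725, 2403 and 2292 features had an unadjusted p under 0.05 and Ddit4l had adjusted p of 0.199, 0.152 and 0.0606. With each array left out in turn, 0 to 129 genes and 0 to 1 of the 10 were called. The 129 came without labelled Dicer KO array 3, and without any 1 of the other 5 arrays limma called 0 genes, with 2197 to 2532 at an unadjusted p under 0.05. The array numbers were not taken as pairs, because deviations of same-numbered arrays from their group means correlated at 0.089, 0.17 and 0.29, the first below 0.1. Differently numbered arrays correlated at -0.23 to 0.094, mostly lower than same-numbered ones. These values do not settle whether the arrays were paired. Signal over background is unknown, so whether small differences of dim genes were detectable here cannot be told.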
